A study of Mus musculus with 59 samples.

Results

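The A, B, D and E cyclins are the 9 mouse genes Ccnd1, Ccnd2, Ccnd3, Ccne1, Ccne2, Ccna1, Ccna2, Ccnb1 and Ccnb2, taken by name from an expression table of 24421 genes, and all 9 had a row in it. The table describes cloned mouse embryos. In somatic cell nuclear transfer (SCNT), the nucleus of a donor cell replaces that of an oocyte, and activation then starts development. The groups used were SCNT embryos of strain BDF1 treated with trichostatin A (TSA), a histone deacetylase inhibitor, and collected as late 2-cell embryos 33 to 34 h after activation, and untreated SCNT embryos of strain BDF1 collected as late 2-cell embryos at the same time, as early 2-cell embryos at 20 to 21 h and as 1-cell embryos at 13 to 14 h. All of these embryos, untreated ones included, are clones. The labels name cumulus cells, the somatic cells around the oocyte, as donors, and their shared protocol names superovulated females of 5 to 7 weeks as the source of oocytes. Zonae and polar bodies were removed before collection, and the labels state neither the dose and timing of TSA nor the number of embryos per library. The labels list 5 libraries of poly(A) RNA for each group, but the table holds 1 value per gene and group, given by the authors as log2(FPKM + 1). FPKM counts fragments per kilobase of transcript and relative to the mapped total, so genes can be set side by side within a column. The values below therefore have no SD, no n and no test, and depth is unknown.

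Cyclins bind and activate cyclin-dependent kinases (CDKs), and their rise and destruction order the steps of the cell cycle. D-type cyclins pair with Cdk4 and Cdk6 in G1 and lead to phosphorylation of the retinoblastoma protein, E-type cyclins pair with Cdk2 at the entry into S phase, A-type cyclins act in S phase and G2, and B-type cyclins pair with Cdk1 to drive mitosis. Each class has members that differ by tissue, and Ccna1 is known in the mouse as the A-type cyclin of the male germ line. Oocytes store mRNA of B-type cyclins for the meiotic divisions, and in the mouse the embryo's own genome becomes broadly active in the course of the 2-cell stage.

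Promoter sequence is shown for the members on which the comparisons below turn, Ccnb1 and Ccnb2 among the stored transcripts and Ccne1 and Ccna1 among those that were low at first. RefSeq's promoter table (GRCm38.p6) held entries for 5 of the 9 members, Ccna1, Ccnb1, Ccnb2, Ccnd3 and Ccne1. The entry for Ccna1 lies inside the RefSeq span of the gene (chr3:55045469-55057634), so it precedes an internal start and not the outermost one. Each line gives the 250 bases before the annotated start of transcription, 5′ to 3′ on the strand of the gene, with CCAAT boxes (CCAAT, or ATTGG on the opposite strand) and GC boxes (GGGCGG, or CCGCCC on the opposite strand) in capitals.
Ccnb1, chr13:100786487-100786736, strand -: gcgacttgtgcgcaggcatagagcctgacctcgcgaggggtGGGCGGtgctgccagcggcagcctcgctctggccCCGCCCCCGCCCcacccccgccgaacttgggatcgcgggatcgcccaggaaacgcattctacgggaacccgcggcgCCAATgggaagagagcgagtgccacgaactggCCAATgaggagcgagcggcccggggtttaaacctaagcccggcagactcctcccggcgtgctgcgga
Ccnb2, chr9:70421555-70421804, strand -: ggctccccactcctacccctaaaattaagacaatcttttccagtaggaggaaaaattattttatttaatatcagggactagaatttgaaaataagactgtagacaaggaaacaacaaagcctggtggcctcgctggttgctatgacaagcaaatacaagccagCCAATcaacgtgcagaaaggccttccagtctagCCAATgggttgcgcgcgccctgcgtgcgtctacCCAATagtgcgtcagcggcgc
Ccne1, chr7:38107491-38107740, strand -: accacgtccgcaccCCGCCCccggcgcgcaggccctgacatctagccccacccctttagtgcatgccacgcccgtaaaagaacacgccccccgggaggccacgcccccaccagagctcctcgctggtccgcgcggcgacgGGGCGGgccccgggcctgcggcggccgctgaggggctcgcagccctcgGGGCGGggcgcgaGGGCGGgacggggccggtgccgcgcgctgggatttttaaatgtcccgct
Ccna1, chr3:55055056-55055305, strand -: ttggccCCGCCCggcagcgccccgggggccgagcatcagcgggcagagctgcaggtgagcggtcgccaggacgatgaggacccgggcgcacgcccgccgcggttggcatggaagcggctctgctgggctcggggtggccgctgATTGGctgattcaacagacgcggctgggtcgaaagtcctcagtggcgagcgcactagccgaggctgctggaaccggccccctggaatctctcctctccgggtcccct

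The Ccnb1 window held 2 CCAAT boxes on the strand of the gene, which begin 99 and 67 bases before the start and so lie 32 bases apart. That of Ccnb2 held 3, beginning 87, 54 and 21 bases before the start, 33 bases apart in both steps. A pair of CCAAT boxes on 1 strand at a distance of 32 or 33 bases was present in 0.42% of the 32851 promoter windows of the same length, a spacing that was looked up after it had been seen in these sequences. At least 1 CCAAT box was present in 33.8% of windows and at least 3 in 2.79%. Ccne1 held 0 CCAAT boxes and 4 GC boxes, and Ccnb1 held 3 GC boxes. At least 1 GC box was present in 32.7% of windows and at least 3 in 8.47%. Ccna1 held 1 CCAAT box on the opposite strand, beginning 107 bases before its internal start, and 1 GC box. The motif TTTGAA, on either strand, was found 1 time in Ccnb2 and 0 times in the other windows shown, against 16.0% of windows with at least 1. Of the E2F motifs TTTCCCGC, TTTCGCGC, TTTGCCGC and TTTGGCGC, on either strand, 0 matches were found in the windows of these members, against 1.86% of windows. The motifs found did not overlap one another. These matches describe letters in a window and say nothing of which factor was bound.

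Across the untreated stages the mix of cyclin classes differed, and so did the leading gene within the E class. B-type transcripts were the largest class at each stage. They held 91.9%, 92.1% and 62.6% of the summed FPKM of the 9 genes in 1-cell, early 2-cell and late 2-cell embryos. E-type transcripts held 4.25%, 3.14% and 22.7% in the same order, A-type transcripts 3.54%, 4.38% and 12.3%, and D-type transcripts 0.328%, 0.394% and 2.42%. These shares do not depend on how a column is scaled as a whole. With 1 value per group, differences between embryos or between cells cannot be seen, and FPKM does not give the amount of RNA per embryo.

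**Figure D1:**
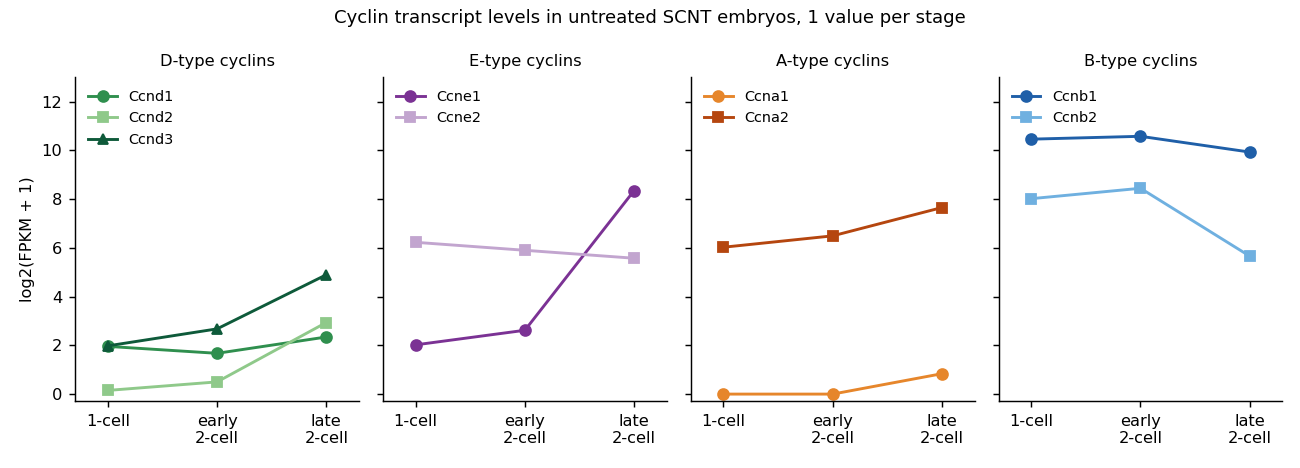
Levels of the cyclin genes in untreated SCNT embryos, as log2(FPKM + 1), at the 1-cell, early 2-cell and late 2-cell stages, with a panel for each class. Each point is the authors' value for a group, with no error. Ccne1 stands at 2.02, 2.62 and 8.35, while Ccnb2 stands at 8.02, 8.44 and 5.66.

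Of the D-type cyclins, Ccnd3 (chr17:47505051-47599689) was at 2.94, 5.39 and 28.7 FPKM in 1-cell, early 2-cell and late 2-cell embryos, and so was highest at the last stage. Ccnd2 (chr6:127125162-127152188), which responds to follicle-stimulating hormone in granulosa cells, was at 0.11, 0.41 and 6.65 FPKM. It was below 1 FPKM until the late 2-cell stage. Ccnd1 (chr7:144929931-144939831), the D-type cyclin best known as a target of growth factor signalling, was at 2.88, 2.19 and 4.07 FPKM, the narrowest range of the 3. At the 1-cell stage Ccnd3 and Ccnd1 lay within a factor of 1.02 of each other, and at the late 2-cell stage Ccnd3 was 7.06 times as high as Ccnd1.

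Of the E-type cyclins, Ccne1 (chr7:38097984-38107490) was at 3.06, 5.14 and 324 FPKM in 1-cell, early 2-cell and late 2-cell embryos. Ccne2 (chr4:11190433-11204779), which pairs with the same kinase, was at 73.8, 58.6 and 46.6 FPKM. The order of the pair therefore differed between the stages. Ccne2 was 24.2 times as high as Ccne1 at the 1-cell stage and 11.4 times as high at the early 2-cell stage, whereas Ccne1 was 6.96 times as high as Ccne2 at the late 2-cell stage. Ccne1 held 3.98%, 8.06% and 87.4% of the E-type sum at these stages.

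Of the A-type cyclins, Ccna2 (chr3:36564865-36573038), the A-type cyclin of dividing somatic cells, was at 64.1, 88.9 and 200 FPKM in 1-cell, early 2-cell and late 2-cell embryos. Its level was higher at each later stage. Ccna1 (chr3:55045469-55057634) was listed at 0 at the first 2 stages and at 0.79 FPKM in untreated late 2-cell embryos, so that Ccna2 made up 99.6% of the A-type sum there. An entry of 0 can be a failed estimate in a table without counts.

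Of the B-type cyclins, Ccnb1 (chr13:100778739-100786486) was the highest of the 9 genes in each column, at 1404, 1523 and 972 FPKM in 1-cell, early 2-cell and late 2-cell embryos. It ranked 43rd, 38th and 42nd from the top among all genes of these columns. Ccnb2 (chr9:70407689-70421554) was at 258, 347 and 49.5 FPKM. Ccnb1 was 5.45, 4.39 and 19.6 times as high as Ccnb2 at the successive stages, and Ccnb2 held 15.5%, 18.5% and 4.85% of the B-type sum. RefSeq also lists a transcribed pseudogene named Ccnb1-ps on chromosome 7, and no source used here gives how reads shared with it were assigned.

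The order of the levels was Ccnb1, Ccnb2, Ccne2, Ccna2, Ccne1, Ccnd3, Ccnd1, Ccnd2 and Ccna1 in 1-cell embryos. In early 2-cell embryos Ccna2 stood above Ccne2, and Ccnd3 stood above Ccne1. In late 2-cell embryos the order was Ccnb1, Ccne1, Ccna2, Ccnb2, Ccne2, Ccnd3, Ccnd2, Ccnd1 and Ccna1. With no spread between replicates, the order of close neighbours cannot be judged. At the 1-cell stage Ccne1 was 1.04 times as high as Ccnd3, and Ccnd3 was 1.02 times as high as Ccnd1. Ccnd3 was 1.05 times as high as Ccne1 at the early 2-cell stage, and Ccnb2 1.06 times as high as Ccne2 at the late 2-cell stage.

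**Figure D2:**
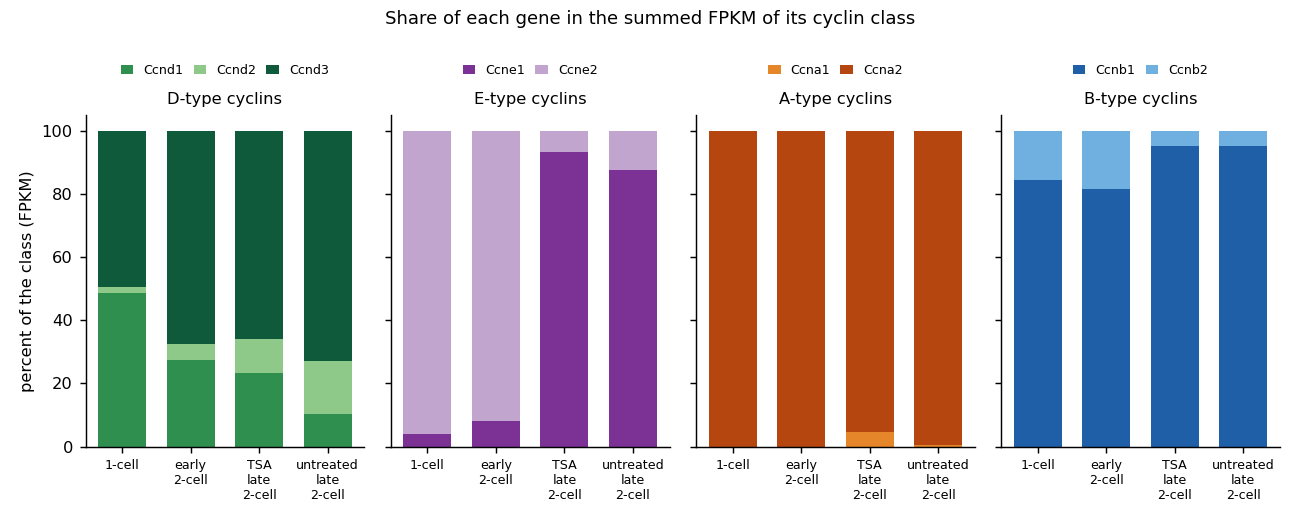
Share of each gene in the summed FPKM of its cyclin class, in percent, for 1-cell, early 2-cell, TSA-treated late 2-cell and untreated late 2-cell SCNT embryos. Each bar is the authors' value for a group. Ccne1 holds 93.4% of the E-type sum with TSA and 87.4% without, against 8.06% in early 2-cell and 3.98% in 1-cell embryos.

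The first cleavage was described by comparing early 2-cell with 1-cell embryos. Each difference here and below is log2(FPKM + 1) of the group named first minus that of the other. A difference of 1 or more, 2-fold on that scale, is what higher and lower calls below rest on. A gene entered a comparison if either of its columns held 1 FPKM or more. Ccna1 and Ccnd2 did not pass that filter here. Of the 7 cyclins kept, 0 were counted as higher and 0 as lower, beside 3.72% of 10117 genes counted as higher and 7.12% as lower (10.8% in either direction). The largest difference was that of Ccnd3, at 5.39 FPKM in early 2-cell against 2.94 FPKM in 1-cell embryos (0.70), followed by Ccne1 (0.60), Ccna2 (0.47) and Ccnb2 (0.43). Ccne2 (-0.33) and Ccnd1 (-0.28) lay on the other side of 0. Higher genes made up 34.3% of all genes counted as different, against 43.5% after median-ratio scaling and 46.5% after quantile normalization of the columns. Both scalings bring the columns to a common level by design, so a more even split follows from the method. The maternal markers Zp1, Zp2, Zp3, Gdf9, Bmp15, Nlrp5, Ooep, Zar1, Mos, Padi6, Tle6 and Khdc3 had a median difference of -0.80 in the same comparison, with 4 of 12 counted as lower and 0 of 12 above 0. Over all kept genes the median was -0.08, and over the 7 cyclins it was 0.43.

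Between the early and the late 2-cell stage the cyclins differed far more, as did the table as a whole. Of 8 cyclins kept, 4 were counted as higher at the late 2-cell stage and 1 as lower, beside 47.9% of 12794 genes counted as higher and 10.9% as lower (58.8% in either direction). The cyclins' median difference of 0.92 was that of all genes (0.92). Ccne1 stood farthest out, at 324 FPKM in late 2-cell against 5.14 FPKM in early 2-cell embryos, a difference of 5.73 that 25 of the 12794 genes exceeded. Ccnd2 was at 6.65 against 0.41 FPKM (2.44) and Ccnd3 at 28.7 against 5.39 FPKM (2.22). Ccnd2 passed the filter through its late 2-cell value alone. Ccna2, at 200 against 88.9 FPKM (1.16), lay close to the median of all genes.

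Ccnb2 was the cyclin counted as lower, at 49.5 FPKM in late 2-cell against 347 FPKM in early 2-cell embryos, a difference of -2.78, and 1.01% of the kept genes had a lower one. Ccnb1 was at 972 against 1523 FPKM (-0.65) and Ccne2 at 46.6 against 58.6 FPKM (-0.33). Ccnd1 was at 4.07 against 2.19 FPKM (0.67), and its difference was -0.08 after median-ratio scaling and -0.46 after quantile normalization. The calls of Ccne1, Ccnd2, Ccnd3 and Ccnb2 held in these and both other settings of the pseudocount. That of Ccna2 did not hold after either scaling (0.16 and 0.79), and after median-ratio scaling Ccnb1 (-1.65) and Ccne2 (-1.31) were also counted as lower. Higher genes made up 81.4% of all genes counted as different, against 54.4% and 50.9% after the 2 scalings, and the median of all genes was 0.16 and 0.05 in place of 0.92. Because both scalings remove a shift shared by most genes, they cannot show whether levels rose as a whole. The maternal markers named above had a median of -0.14, with 2 of 12 counted as higher and 4 as lower. They ran from Zp3, a zona pellucida protein, at 101 FPKM in late against 27.9 FPKM in early 2-cell embryos (1.82), to Ooep, a maternal effect gene, at 12.5 against 140 FPKM (-3.39).

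**Figure D3:**
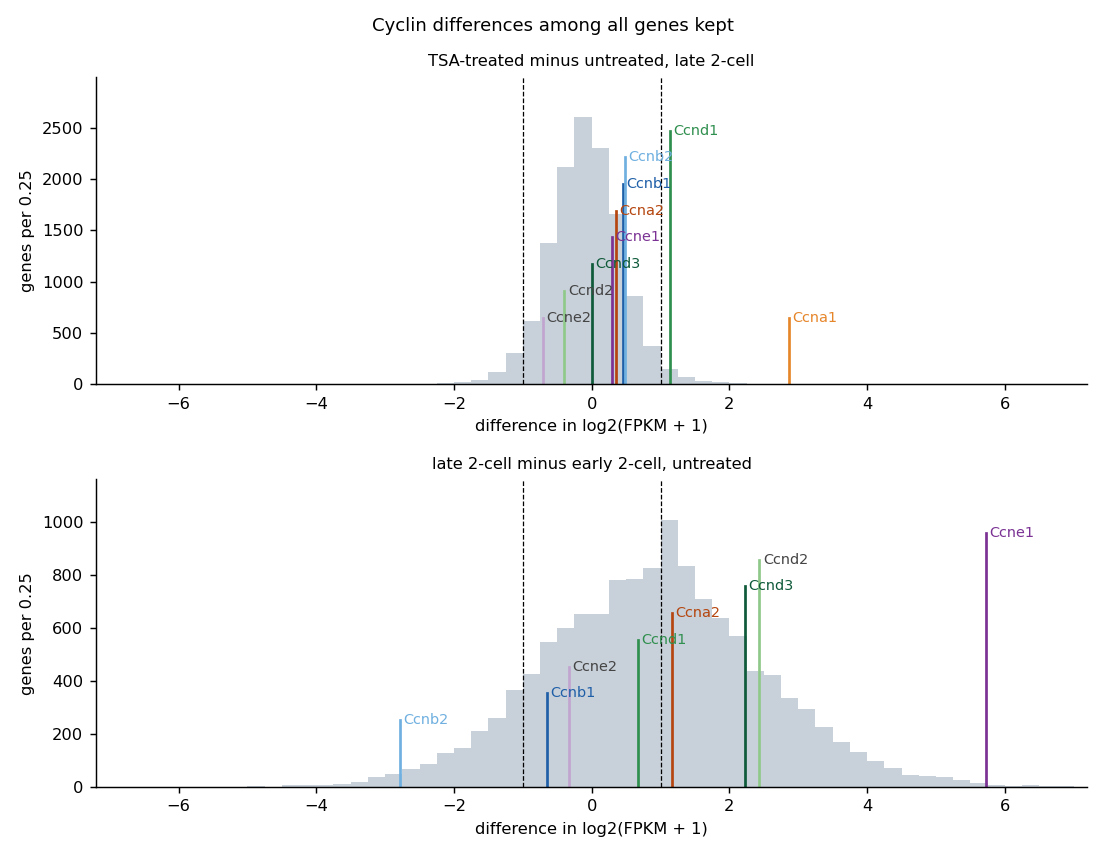
Histograms of the difference in log2(FPKM + 1) of all kept genes, per bin of 0.25, for TSA-treated minus untreated late 2-cell embryos (top) and late minus early 2-cell embryos (bottom), with the kept cyclins as coloured lines whose height has no meaning. Dashed lines mark a difference of 1 in either direction. Ccna1 lies at 2.87 in the upper panel, and Ccne1 at 5.73 and Ccnb2 at -2.78 in the lower one.

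From the 1-cell to the late 2-cell stage as a whole, 4 of 8 kept cyclins were counted as higher and 1 as lower, beside 45.7% and 13.8% of 12880 genes (59.4% in either direction). Ccnd2, 1 of the 4, was at 6.65 FPKM in late 2-cell against 0.11 FPKM in 1-cell embryos (2.78). It passed the filter through its late 2-cell value alone, so its count as higher is partly set by the filter. Ccne1 was at 324 FPKM in late 2-cell against 3.06 FPKM in 1-cell embryos, a 106-fold ratio in plain FPKM. Ccnd3 was 9.78-fold and Ccna2 3.12-fold higher in plain FPKM, while Ccnb2 was at 0.19 times its 1-cell value. These ratios depend on scaling. After median-ratio scaling the differences on the log2(FPKM + 1) scale were 5.49 for Ccne1, against 6.32 as deposited, 2.105 for Ccnd3, against 2.92, and -3.26 for Ccnb2, against -2.36. That of Ccna2 was 0.72, against 1.63, so that 3 cyclins in place of 4 were counted as higher and 3 in place of 1 as lower. Higher genes made up 76.8% of all genes counted as different, against 52.7% after median-ratio scaling and 49.4% after quantile normalization. This comparison shares its columns with the preceding ones and adds no independent measurement.

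TSA-treated and untreated embryos were compared at the late 2-cell stage, the question being how the transcriptome of cloned embryos differs when histone deacetylases are inhibited. Of the 9 cyclins, 2 were counted as higher with TSA, Ccna1 and Ccnd1, and 0 as lower. Over the 12756 genes kept, 2.51% were counted as higher and 4.08% as lower (6.59% in either direction). Ccna2, Ccnb1, Ccnb2 and Ccne1 lay above 0 by less than the threshold, Ccnd3 lay at about 0, and Ccne2 and Ccnd2 lay below it. The median difference of the 9 cyclins was 0.35, with 6 of 9 above 0, while that of all genes was -0.08, with 5518 of 12756 above 0.

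Ccna1 was at 12.04 FPKM in TSA-treated late 2-cell embryos, against 0.79 FPKM in untreated ones, a difference of 2.87 that 9 of the 12756 genes exceeded. It was the cyclin with the widest gap between the groups, and it passed the filter through its TSA value alone, so its count as higher is partly set by the filter. Over the other settings its difference ran from 1.56 with a pseudocount of 5 to 3.78 with one of 0.1, and it was counted as higher in each. Ccna1 made up 4.51% of the A-type sum with TSA and 0.391% without. The lncRNA gene 4931419H13Rik overlaps Ccna1 by 2393 bases in RefSeq and was at 0.080 FPKM with TSA and listed at 0 without.

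Ccnd1 was at 10.1 FPKM with TSA and 4.07 FPKM in untreated embryos (1.13), and 236 of the 12756 genes had a higher difference. With a pseudocount of 5 its difference was 0.74, below the threshold. Ccnd1 made up 23.2% of the D-type sum with TSA and 10.3% without. The gene LTO1, named Oraov1 in the table, overlaps Ccnd1 by 818 bases, and it was at 19.8 FPKM with TSA against 15.2 FPKM without TSA. Its part in the value of Ccnd1 was not tested.

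Ccnd3 was at 28.7 FPKM in both TSA-treated and untreated late 2-cell embryos. Its difference lay within 0.01 of 0 as deposited and was 0.14 after median-ratio scaling. Ccnd2 was at 4.82 FPKM with TSA against 6.65 FPKM without TSA (-0.40). The 3 D-type cyclins thus had differences of 1.13, -0.40 and about 0, so the class held differences of either sign.

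Ccne1 was at 396 FPKM in TSA-treated and 324 FPKM in untreated late 2-cell embryos (0.29). Ccne2 was at 28.1 against 46.6 FPKM (-0.71), the lowest difference of the 9, and 10.2% of genes had a lower one. Ccne1 was 14.1 times as high as Ccne2 with TSA and 6.96 times as high without. That ratio within a column is the same under median-ratio scaling. Ints8 overlaps Ccne2 by 5622 bases and was at 35.5 FPKM with TSA against 32.9 FPKM without TSA. The part of Ints8 in the value of Ccne2 was not tested.

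Ccna2 was at 255 FPKM in TSA-treated and 200 FPKM in untreated late 2-cell embryos (0.35). Ccnb1 was at 1327 against 972 FPKM (0.45) and ranked 22nd from the top with TSA and 42nd without. Ccnb2 was at 69.4 against 49.5 FPKM (0.48). Both B-type cyclins were thus higher with TSA by nearly the same ratio, 1.36-fold and 1.402-fold, and Ccnb1 was 19.1 times as high as Ccnb2 with TSA and 19.6 times without. Of the differences given for TSA, that of Ccnd3 had another sign under scaling, and those of the other 8 cyclins kept theirs. Higher genes made up 38.1% of all genes counted as different, against 61.2% after median-ratio scaling and 52.7% after quantile normalization. The median of all genes was 0.05 and -0.01 in these settings, and that of the cyclins 0.50 and 0.39.

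**Figure D4:**
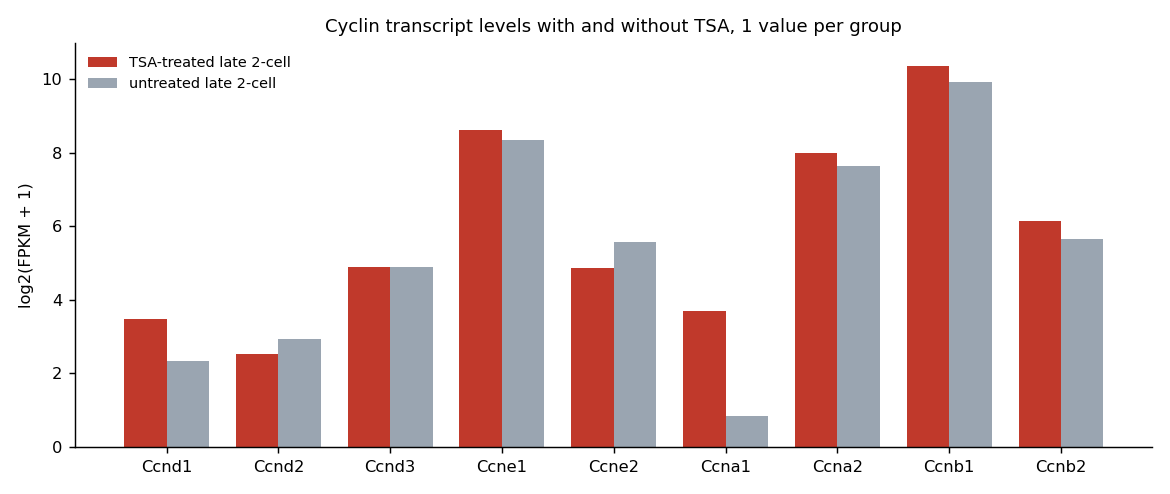
Levels of the 9 cyclins as log2(FPKM + 1) in TSA-treated (red, left) and untreated (grey, right) late 2-cell SCNT embryos, 1 bar per group value and with no error. Ccna1 stands at 3.705 with TSA and 0.84 without, and Ccnd1 at 3.47 with TSA and 2.34 without.

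The partners of the cyclins were described from lists of CDKs, inhibitors and regulators, and in each list and comparison the genes named are those of highest and lowest difference among genes with at least 5 FPKM. Of 8 CDKs and direct partners, 5 were counted as higher and 2 as lower at the late against the early 2-cell stage, where 47.9% of all genes were counted as higher and 10.9% as lower. After median-ratio scaling 3758 of the 12794 genes were higher and 3145 lower, and the lists were not counted again under that scaling. Cdk4, the kinase of D-type cyclins, was at 73.2 FPKM in late and 2.20 FPKM in early 2-cell embryos. Cks2, a small CDK-binding subunit, was at 140 against 534 FPKM. With TSA 0 of 8 were counted in either direction, beside 6.59% of all genes. Cdk1 had the highest difference, at 292 FPKM with TSA against 174 FPKM without (0.75), and Cks2 the lowest, at 109 against 140 FPKM (-0.36). At the first cleavage 0 of 8 were counted as higher and 2 as lower, beside 3.72% and 7.12% of all genes. Cks1b, the other small subunit, was at 1206 FPKM in early 2-cell against 605 FPKM in 1-cell embryos (0.99). Those counted as lower were Mnat1, part of the CDK-activating kinase, at 7.04 against 31.4 FPKM (-2.01), and Cdk1. In the same stages Cdk1 was at 12.9 against 28.9 FPKM (-1.10).

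Among 7 CDK inhibitors, of which 6 were kept with TSA, 1 was counted as higher with TSA and 0 as lower. Over all genes 2.51% and 4.08% were so counted. The inhibitor counted as higher was Cdkn1c, the imprinted inhibitor p57, at 6.66 FPKM with TSA against 2.11 FPKM without. Cdkn1a, which encodes p21, was at 125 against 167 FPKM (-0.41). Cdkn1a was also the inhibitor with the highest difference at both stage steps, at 21.1 FPKM in early 2-cell against 4.27 FPKM in 1-cell embryos, and at 167 FPKM in late against 21.1 FPKM in early 2-cell embryos. Cdkn1b, which encodes p27, was at 1.80 FPKM in late and 6.57 FPKM in early 2-cell embryos. Of the 7 phosphatases and kinases that switch CDKs on and off, 0 were counted with TSA, beside 6.59% of all genes. Plk1 was at 52.1 FPKM with TSA against 34.0 FPKM without (0.60), and Cdc25b at 4.15 against 5.63 FPKM (-0.36). At the late 2-cell stage 3 of these 7 were counted as higher than at the early one, a share near the 47.9% of all genes, and their median of 0.90 was near that of all genes (0.92). Cdc25c, which removes the inhibitory phosphates from Cdk1, was at 92.8 against 2.46 FPKM.

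A list of 25 genes for cyclin degradation held parts and regulators of the anaphase-promoting complex, inhibitors included, and of SCF and other ligases. Of these 25, 1 was counted as higher with TSA and 0 as lower. The shares over all genes were 2.51% and 4.08%. The listed gene counted as higher was Cdc20, the activator of the complex in mitosis, at 589 against 267 FPKM (1.14). Cdc26, a subunit, had the lowest difference, at 29.5 against 46.5 FPKM (-0.64). At the late against the early 2-cell stage 11 of 25 were counted as higher and 6 as lower, beside 47.9% and 10.9% of all genes, and their median was 0.53, against 0.92 over all genes. Ube2c, the ubiquitin-conjugating enzyme of the complex, was at 491 against 56.2 FPKM, and Rbx1, the ring subunit of SCF ligases, at 34.2 against 190 FPKM. At the first cleavage 0 of 24 were counted as higher and 2 as lower, beside 3.72% and 7.12% of all genes. Fbxo5, an inhibitor of the complex, was at 14.0 FPKM in early 2-cell against 78.6 FPKM in 1-cell embryos (-2.41). Cdc20 had the highest difference, at 128 against 69.4 FPKM (0.87).

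**Figure D5:**
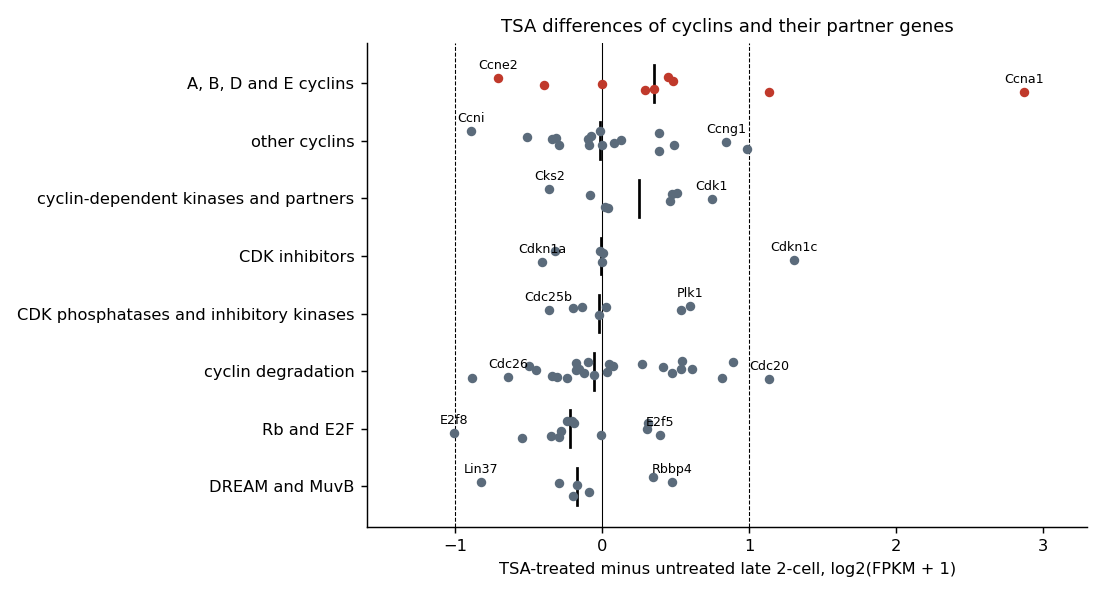
Difference in log2(FPKM + 1) between TSA-treated and untreated late 2-cell embryos for each kept gene of the cyclins (red) and 7 lists of related genes (grey), with black bars at the list medians and dashed lines at a difference of 1. Gene names mark the extremes among the cyclins and, in the lists, among genes with at least 5 FPKM, and vertical scatter has no meaning. The cyclin median lies at 0.35 and that of the CDKs at 0.25, while the other list medians lie between -0.22 and -0.01.

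The 17 other cyclins, which include regulators of transcription such as Ccnt1 and Ccnk, had a median difference of -0.02 with TSA. Of these 17, 0 were counted in either direction, beside 6.59% of all genes. Ccng1, a p53 target, was at 18.1 against 9.65 FPKM (0.84), and Ccni was at 6.43 against 12.8 FPKM (-0.90). At the late against the early 2-cell stage 7 of 17 were counted as higher and 1 as lower, shares near the 47.9% and 10.9% of all genes. Ccnjl was at 38.5 against 0.92 FPKM. Ccnb3, a B-type cyclin of meiosis, was at 2.20 FPKM in early 2-cell against 13.1 FPKM in 1-cell embryos (-2.14), where Ccnb1 and Ccnb2 had differences of 0.12 and 0.43.

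The genes whose profile over the 4 columns was most like that of each cyclin were found by the distance between values of log2(FPKM + 1), centred on each gene's own mean, among 12181 other named genes. With 4 columns, many genes lie close to any profile. The nearest to Ccnb2 was Spin1 (distance 0.21), a maternal transcript, and then Mmp12 (0.23). The nearest to Ccnb1 were Metap2 (0.062) and Bbip1 (0.066), and to Ccne2 Grm8 (0.021) and Arfip1 (0.036). The nearest to Ccne1 were Bri3bp (0.18) and Ctsc (0.20). Those to Ccna2 were Cfdp1 (0.037) and Ccdc166 (0.059), and those to Ccnd3 were Hira (0.039), a histone chaperone, and Lsm8 (0.085). Ccnd2 lay nearest to Nol7 (0.065) and Cdk16 (0.076), and Ccnd1 to Scfd2 (0.14) and Pramel3 (0.15). Ccna1 had the most distant neighbours, Fam181b (0.44) and Crabp1 (0.67), which were also below 1 FPKM in each untreated column, and at 8.44 and 9.45 FPKM with TSA. Among the cyclins themselves the closest pair was Ccnd2 and Ccnd3 (0.40), and the next was Ccna2 and Ccnd1 (0.90).

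Markers of the donor cell type were measured beside these values, since Ccnd2 is also a granulosa gene. Of 20 cumulus and granulosa markers, 8 reached 1 FPKM in TSA-treated and 7 in untreated late 2-cell embryos, and 5 did in each of the earlier columns. Their summed level was 123 FPKM with TSA and 103 FPKM in untreated late 2-cell embryos, against 39.9 FPKM in early 2-cell and 38.7 FPKM in 1-cell embryos. Most of this came from Nr5a2, at 69.0 FPKM with TSA and 52.7 FPKM without, and Gja1, at 34.7 FPKM with TSA and 29.5 FPKM without, genes that embryos also express. Among the markers below 1 FPKM in both late 2-cell columns, Inha was listed at 0. Foxl2 was at 0.25 FPKM with TSA against 0.19 FPKM without TSA. Amh was at 0.06 FPKM with TSA against 0.30 FPKM without TSA. Of the 20 markers, 9 passed the filter, with a median difference of 0.22 with TSA, 5 of 9 above 0, 0 counted as higher and 1 as lower. Over all genes 2.51% were counted as higher and 4.08% as lower. The marker counted as lower was Fshr, listed at 0 with TSA and at 1.64 FPKM without. It passed the filter through its untreated value alone, so its count as lower is partly set by the filter. Cyp19a1 was at 1.703 FPKM with TSA against 0.50 FPKM in untreated embryos. Ccnd2 itself had a difference of -0.40, and the part of donor transcripts in the value of Ccnd2 was not tested. The 12 maternal markers each had at least 1 FPKM in each column, and with TSA their median difference was -0.29, with 1 of 12 above 0.

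In RefSeq, Ccnb1, Ccnb2 and Ccne1 overlap no other gene, and the other 6 members each overlap at least 1. No source used here states whether reads were counted by strand, so reads from the overlaps cannot be assigned with certainty. Bysl, which overlaps Ccnd3 by 359 bases, was at 4.89 FPKM in late 2-cell and 0.26 FPKM in early 2-cell embryos, and so lay in the direction of Ccnd3 at a lower level. The lncRNA gene Gm41590 overlaps Ccnd3 by 7217 bases, and the lncRNA gene A630034I12Rik overlaps Ccne2 by 798 bases. No level is given for either. The lncRNA gene 9330179D12Rik, which overlaps Ccnd2 by 2800 bases, was at 0.37 FPKM in late 2-cell and 0.019 FPKM in early 2-cell embryos. Exosc9, which overlaps Ccna2 by 863 bases, was at 3.52 FPKM in late 2-cell and 3.05 FPKM in early 2-cell embryos.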

How the data were processed

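The table, deposited by the authors, gives 1 value of log2(FPKM + 1) per gene and group, as its file header states. The submitters' processing notes name the build mm10 and HISAT2 2.1.0, StringTie 1.3.4, SAMtools 1.7 and Cufflinks among the tools, without their roles. No source used here gives the annotation, the strand setting or how the 5 libraries of a group were combined. The 1-cell column is named by 13 h and was matched through the collection time in the labels' protocols. Another 2 value columns have no matching RNA library in the labels and were left out, and the chromatin libraries were not analysed here.

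FPKM is relative to the column total, and log2(FPKM + 1) understates differences near or under 1 FPKM. Libraries came from poly(A) RNA, and poly(A) tail length, which can differ for stored mRNA, was not measured. Differences, counts from a threshold of 1, class shares and profile distances were computed in Python 3.11.15 with pandas 2.3.3. The counting code was run on simulated data, with changes well past the threshold in genes well above the filter. That run does not cover levels as low as those of Ccna1, Ccnd1 and Ccnd2. Alternatives were pseudocounts of 0.1 and 5, median-ratio scaling over genes above 0 in all 4 columns, quantile normalization, no filter and a filter of 5 FPKM. Named genes were the 9 members, the 2 nearest profiles of each and, per list and comparison, the highest and lowest difference among genes with at least 5 FPKM. Genes outside this rule that are named (overlapping genes, single markers, Ccnt1, Ccnk and, at the first cleavage, Cdk1) were chosen after their values were seen. Members and lists were chosen with earlier results of these data known.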

Additional observations from a re-analysis of the deposited data

How the results depend on the processing

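No paired analysis was possible because each group has 1 deposited value, and for the same reason no replicate could be left out. Of 144 differences of single cyclins under other pseudocounts and scalings, 132 stayed on their side of the threshold, 12 crossed it, and 0 of those counted as different changed sign. The 144 include Ccna1 and Ccnd2 in comparisons where they did not pass the filter. Some of these crossed the threshold with a pseudocount of 0.1, while Ccna1, listed at 0 in both early 2-cell and 1-cell embryos, could not move there. With TSA, 1 cyclin was counted as higher with a pseudocount of 5 (Ccna1). At the late against the early 2-cell stage, 3 cyclins were counted as lower after median-ratio scaling (Ccnb1, Ccnb2 and Ccne2). At the late 2-cell against the 1-cell stage, 3 were counted as lower after median-ratio scaling and 2 after quantile normalization. Median-ratio factors were 1.33 and 1.47 for the TSA-treated and untreated late 2-cell columns, 0.73 for early 2-cell and 0.78 for 1-cell.

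Counts over all genes moved more. With TSA they were 614 higher and 1074 lower with a pseudocount of 0.1, 89 and 92 with 5, and 179 and 280 from 5 FPKM, against 320 and 520 as reported, while 233 were lower after median-ratio scaling and 319 after quantile normalization. For early 2-cell against 1-cell they were 713 and 1152 with a pseudocount of 0.1 and 90 and 334 with 5, and 182 were higher from 5 FPKM. For late against early 2-cell they were 3556 and 847 with a pseudocount of 5, 3758 and 3145 after median-ratio scaling, and 3419 and 3301 after quantile normalization. For late 2-cell against 1-cell they were 3429 and 1133, 3810 and 3423, and 3458 and 3547 in these 3 settings. Under median-ratio scaling and quantile normalization, a more even split follows from the method, which brings the columns to a common level. Whether the columns differ in total RNA was not tested. Depth and the spread between libraries are unknown, so the low values of Ccna1, Ccnd1 and Ccnd2 are the least certain.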

Other observations

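Transcription factors that act on cyclin genes and regulators of stored mRNA were measured in the same columns. Of 12 kept genes of the retinoblastoma and E2F families, 0 were counted as higher with TSA and 1 as lower. The shares over all genes were 2.51% and 4.08%. The listed gene counted as lower was E2f8, a repressor of the E2F family, at 5.60 FPKM with TSA against 12.3 FPKM without TSA (-1.01). E2f5 was at 89.5 FPKM with TSA against 67.8 FPKM without TSA (0.39). At the late against the early 2-cell stage 3 of 12 were counted as higher and 1 as lower, beside 47.9% and 10.9% of all genes. E2f7, another repressor, was at 5.75 FPKM in late and 0.096 FPKM in early 2-cell embryos, and E2f5 at 67.8 against 304 FPKM. E2f1 was at 7.31 FPKM in early 2-cell and 3.83 FPKM in 1-cell embryos. Of 7 genes of the MuvB complex and its partners, 4 were counted as higher at the late 2-cell stage, beside the same 47.9% of all genes. Mybl2 was at 33.6 FPKM in late against 10.4 FPKM in early 2-cell embryos. With TSA 0 of these 7 were counted, beside 6.59% of all genes. Lin37 was at 16.2 FPKM with TSA against 29.3 FPKM without TSA (-0.82).

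Of 11 kept genes that control polyadenylation and translation of stored mRNA, 0 were counted in either direction with TSA, beside 6.59% of all genes. Cpsf4, a subunit of the cleavage and polyadenylation factor, was at 68.5 FPKM with TSA against 36.4 FPKM without TSA (0.90), and Dazl, a germ cell translation factor, at 21.4 against 37.4 FPKM (-0.78). At the first cleavage 2 of 10 were counted as lower, beside 7.12% of all genes. Cpeb1, which binds the polyadenylation element of stored mRNA such as that of Ccnb1, was at 4.65 FPKM in early 2-cell and 11.3 FPKM in 1-cell embryos.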
